A study of Mus musculus with 15 samples.

Results

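Microglia and the other myeloid cells of the wild type (WT) mouse hindbrain were compared between postnatal day 20 (P20) and postnatal day 10 (P10), to describe normal maturation from the second to the third week of life. The comparison used 5 of the 15 libraries of the series, 3 at P20 and 2 at P10, chosen by their labels and not by any measured value. Earlier results of these data were known when the comparison was chosen. Cells were sorted by flow cytometry for CD45 and CD11b, surface proteins of microglia that blood-derived myeloid cells also carry, from dissected brainstem with cerebellum. The rest of the series held 2 WT libraries at P15 and 8 libraries of Twitcher mice (Twi), which carry a mutation of Galc and model Krabbe disease: 3 at P10, 2 at P15 and 3 at P20. No sample label states a treatment of the WT mice. The text on the whole series speaks of single-cell droplets and of some animals given monocytes, which no sample label does; the labels were followed. The strain was not given in the sources used here. No label ties a library to an animal of its own, and the spread behind every p-value is therefore that among libraries, part of which may be technical. P10 values are given in the order replicate 1, then a library whose column carries a number that no label of its group has and which is called the unnumbered library, and P20 values in the order replicate 1, 2 and 3.

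Microglia are the resident macrophages of the brain. They enter it in the embryo, multiply in the early postnatal weeks, clear dying cells and surplus synapses, and later settle into a quiescent surveying state marked by genes such as P2ry12 and Tmem119. In the developing white matter, microglia with high Spp1, Gpnmb, Igf1 and lysosomal genes are found for a short time after birth. Border-associated macrophages of the meninges, perivascular spaces and choroid plexus, and circulating monocytes and neutrophils, can enter the same sort.

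Depth was 29 to 42 M read pairs a library, of which 70.24% mapped on average, per the labels. Between 15715 and 16878 genes per library exceeded the table's lowest value. Across genes, which are not independent replicates, libraries correlated at r = 0.951 within P10, at r = 0.943 to 0.961 within P20 and at r = 0.90 to 0.924 between the ages. P20 replicate 3 stood apart from the other libraries on the fourth principal component, and some of the results that depend on it are marked. In 56.6% of the genes called higher at P20 it was the highest of the 3 P20 libraries, against 36.8% of all genes tested. The mean log2 level of Y-linked genes was 5.61 and 1.08 at P10 and 6.64, 1.19 and 6.56 at P20. Libraries with high and low Y-linked levels were thus mixed at both ages. By the labels, batch 1 held P20 replicate 1, and batch 2 held P10 replicate 1 and P20 replicates 2 and 3. The unnumbered P10 library was given batch 1, the label left in its group, and every value within batch 1 rests on that. Levels are in CPM, counts scaled to the size of the library, with 0 for the lowest value of the table, and changes are log2 P20 minus P10 from the linear fit described under the processing. A gene was called when its limma adjusted p was under 0.05. Genes named from a list beyond its 4 with the smallest p, or beyond the 3 most abundant markers of a cell type, were chosen after their values were seen.

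Between P10 and P20, transcripts of cell division, of sterol export and of several lysosomal hydrolases fell in WT cells, with Gpnmb, Spp1 and Igf1 among the falls. Transcripts of neutrophil granules and of NF-kB inhibitors rose. Of 13292 genes tested, 1375 were called (10.3%), 625 higher at P20 (4.7%) and 750 lower (5.64%). Of these, 393 rose and 438 fell by at least 1 on the log2 scale, which is 2-fold. The median change of all genes tested was 0.01. In bulk RNA, fewer or more cells of a type and less or more RNA per cell cannot be told apart, which holds for all results that follow. The libraries of the 2 ages did not overlap for 42.3% of all genes tested, and for 1372 of the 1375 called genes they did not overlap in the direction of the call. The counts depended on single libraries: without P10 replicate 1 they were 118 higher and 191 lower, without the unnumbered P10 library 236 and 210, without P20 replicate 1 305 and 429, and without P20 replicate 3 377 and 597. Lists with 2 to 5 genes called in a direction had 0 to 3 when either P10 library was left out, except the mitochondrially encoded genes, which kept a count of 5 without P10 replicate 1.

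**Figure D1:**
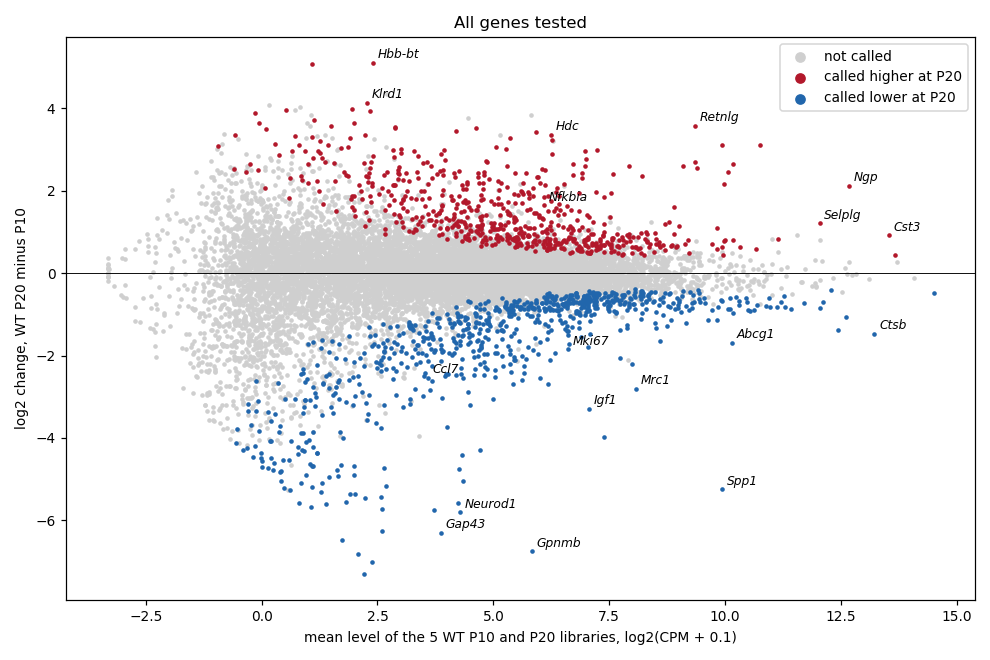
Log2 change from P10 to P20 in WT cells (y axis) against the mean level of each gene over the 5 libraries as log2(CPM + 0.1) (x axis), for the 13292 genes tested; red points are the 625 called higher and blue points the 750 called lower. Gpnmb and Spp1 lie far below the other genes of their level, and the neutrophil genes Ngp and Retnlg lie high at the right.

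The genes that define microglia were present at high levels at both ages, and most of them did not pass the test. P2ry12, the ADP receptor that steers microglial processes, measured 12747 and 10933 CPM at P10 and 15383, 15292 and 12193 CPM at P20. The age groups overlapped. Tmem119, a microglial surface protein, measured 3699.9 and 2209.7 CPM at P10 and 5675, 5123 and 4361 CPM at P20; the groups did not overlap, but its change of 0.80 ± 0.26 (SE) had an adjusted p of 0.0667. Sall1, a transcription factor that keeps microglial identity, changed by 0.34 ± 0.19 (SE), and the receptor Csf1r, on which microglia depend for survival, by 0.26 ± 0.18 (SE); neither passed. Of 26 homeostatic microglia genes tested, 4 were called higher and 1 lower (19.2% in either direction, against 10.3% of all genes tested), with a median of 0.27. The median was 0.49 within batch 1 and 0.11 within batch 2, 0.47 without P10 replicate 1 and 0.12 without the unnumbered library. The number called higher was 1 to 3 with any 1 of the 5 libraries left out. The rises were in Selplg, a selectin ligand (1.21 ± 0.21 SE), the gene listed as 4632428N05Rik, which encodes the checkpoint protein VISTA (0.81 ± 0.18 SE), Cst3, the protease inhibitor cystatin C (0.92 ± 0.23 SE), and Ctss, the protease cathepsin S (0.44 ± 0.11 SE). Selplg measured 3056 and 1753 CPM at P10 and 5927, 5112 and 5189 CPM at P20, and Cst3 measured 7042 and 8710.0 CPM at P10 and 16191, 12704 and 14963 CPM at P20, so each was higher in every P20 library than in both P10 libraries. The single fall was in Fcrls, an Fc receptor-like protein of microglia, which measured 5608 and 5934 CPM at P10 and 4362, 3363 and 2734 CPM at P20. The 10 defining microglia markers summed to 55700.4 and 47182 CPM at P10 and 62615, 50989 and 48792 CPM at P20, and the groups overlapped.

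Genes of cell division fell as a group. Of 44 cell cycle genes tested, 38 were called lower and none higher, against 5.64% and 4.7% of all genes tested, and the median change was -1.84. Mki67, the proliferation antigen Ki-67, measured 149 and 195 CPM at P10 and 46.1, 39.2 and 55.8 CPM at P20, a change of -1.84 ± 0.21 (SE). The B-type cyclin Ccnb1, which drives entry into mitosis with Cdk1, measured 143 and 149 CPM at P10 and 21, 15.6 and 34.1 CPM at P20, a change of -2.69 ± 0.32 (SE). All P20 libraries lay below both P10 libraries for both genes. The replication helicase subunits Mcm3 and Mcm4 changed by -1.33 ± 0.15 (SE) and -1.67 ± 0.21 (SE). Mcm3 measured 157 and 209 CPM at P10 and 72.7, 67.1 and 70.8 CPM at P20. Among the S phase genes called lower were Pcna, the sliding clamp (-0.97), Rrm1 and Rrm2, the ribonucleotide reductase subunits (-1.20 and -1.49), and Tyms, thymidylate synthase (-1.02). Among the mitotic genes called lower were Top2a, a DNA topoisomerase (-1.79), the kinases Aurka (-2.21) and Aurkb (-1.51), and Cdc20, an activator of the anaphase-promoting complex (-2.48). The kinesin Kif20a had the largest fitted change of the list, -5.04 ± 1.24 (SE), but P20 replicate 3 was near 0 for it, at 39.1 and 52.5 CPM at P10 and 3.93, 4.93 and 0.00172 CPM at P20. The 6 genes of the list that were not called were Uhrf1, E2f1, Mcm5, Ube2c, Ccne1 and Cdc45, with changes from -1.17 (Ube2c) to -0.03 (Cdc45). In the 2 WT P15 libraries Mki67 measured 41.3 and 43.7 CPM and Ccnb1 25.6 and 28.3 CPM. The list median was -1.89 within batch 1 and -1.64 within batch 2, and the batches share no library. In batch 1 the P10 and P20 libraries also differed in Y-linked level. Of the list, 20 genes were called lower without P10 replicate 1, 15 without the unnumbered library, and 5 with batch 2 libraries only.

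Many promoters of cell division genes hold a CCAAT box and a cell cycle homology region, the letters read by the NF-Y and DREAM or MuvB complexes. Windows from 250 bases before to 50 bases after the transcription start, from RefSeq on build GRCm38.p6, were searched on both strands for CCAAT and TTTGAA. Of the 38 cell cycle genes called lower, 30 had a window, and these had 32 windows. CCAAT occurred in 28 of the 32 windows (87.5%), against 38.1% of the 12388 windows of all genes tested. TTTGAA occurred in 18 (56.2%), against 12.6%, and both occurred in 56.2%, against 5.14%. The E2F letters TTTCCCGC or TTTGGCGC were rarer, in 9.38% against 2.74%. The 250 bases before the start are shown for the 3 called genes with the smallest p that hold both there, each on the minus strand and written 5′ to 3′, to let the spacing be read; capitals mark CCAAT, its reverse complement and TTTGAA. The windows lie at chr7:135716380-135716629 (Mki67), chr6:88898781-88899030 (Mcm2) and chr4:118437344-118437593 (Cdc20). A match is a description of the letters and not a measured binding site. Cell cycle genes that were not called were not counted apart, so whether the letters go with the fall was not tested.
Mki67: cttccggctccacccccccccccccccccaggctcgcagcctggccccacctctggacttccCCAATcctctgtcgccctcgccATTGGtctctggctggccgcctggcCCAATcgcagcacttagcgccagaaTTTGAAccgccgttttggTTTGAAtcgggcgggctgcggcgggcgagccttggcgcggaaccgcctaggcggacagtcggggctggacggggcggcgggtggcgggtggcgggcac
Mcm2: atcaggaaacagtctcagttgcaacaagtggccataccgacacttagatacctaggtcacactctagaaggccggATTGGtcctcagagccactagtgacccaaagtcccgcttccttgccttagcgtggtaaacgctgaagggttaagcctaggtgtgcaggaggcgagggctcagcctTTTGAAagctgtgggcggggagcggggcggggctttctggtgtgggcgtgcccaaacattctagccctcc
Cdc20: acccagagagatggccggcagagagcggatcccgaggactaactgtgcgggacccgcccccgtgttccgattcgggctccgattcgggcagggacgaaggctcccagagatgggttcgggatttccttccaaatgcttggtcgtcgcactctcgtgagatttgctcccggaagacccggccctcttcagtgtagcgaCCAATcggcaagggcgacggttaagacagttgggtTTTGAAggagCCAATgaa
In the Mki67 window the CCAAT letters begin at -188, -166 and -141 and the TTTGAA letters at -116 and -98, counted from the start. In Mcm2 they begin at -175 and -70. In Cdc20, CCAAT begins at -53 and -8 and TTTGAA at -18. Mcm2 measured 70.6 and 84.2 CPM at P10 and 14.7, 21.9 and 13.8 CPM at P20 and Cdc20 47.5 and 43.6 CPM at P10 and 7.17, 5.14 and 15.9 CPM at P20, and in both genes every P20 library was below both P10 libraries.

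Gpnmb, Spp1 and Igf1, leading genes of microglia in the postnatal white matter, fell. Of 25 genes of proliferative-region-associated microglia tested, 7 were called lower and 2 higher (36% in either direction, against 10.3% of all genes tested). The median was -0.79. Gpnmb, a glycoprotein of phagocytic macrophages, measured 44.9 and 235 CPM at P10 and 1.17, 0.381 and 1.30 CPM at P20, a change of -6.76 ± 0.81 (SE). Spp1, the secreted phosphoprotein osteopontin, measured 744 and 4009.8 CPM at P10 and 30.7, 46 and 85.8 CPM at P20, a change of -5.25 ± 1.04 (SE). Igf1, a growth factor for oligodendrocytes and neurons, measured 171 and 412 CPM at P10 and 27, 22.8 and 32.8 CPM at P20, a change of -3.29 ± 0.41 (SE). In all 3 genes the unnumbered P10 library was the highest, at more than 2 times the level of P10 replicate 1, and every P20 library was below both. Ctsb, the protease cathepsin B, measured 12726 and 18573 CPM at P10 and 5861, 5169 and 5342 CPM at P20, a change of -1.48 ± 0.14 (SE) with little spread at P20. Ctsl, cathepsin L, changed by -1.14 ± 0.20 (SE). Lpl, lipoprotein lipase, changed by -1.26 ± 0.26 (SE), and the lysosomal glycoprotein Cd68 by -0.59 ± 0.17 (SE). Other genes of the list did not pass: Clec7a, the beta-glucan receptor dectin-1, measured 98.8 and 142 CPM at P10 and 114, 102 and 155 CPM at P20, and Csf1 measured 14.5 and 14.6 CPM at P10 and 15.9, 13.5 and 20.0 CPM at P20. Apoe, the lipid carrier, measured 396 and 328 CPM at P10 and 63.8, 49.2 and 357 CPM at P20; P20 replicate 3 lay between the P10 libraries and the change of -2.11 ± 1.15 (SE) did not pass. Lgals3, the lectin galectin-3 (1.97 ± 0.38 SE), and Ccl4, a chemokine (2.19 ± 0.53 SE), were called higher. The list median was -1.28 within batch 1 and -0.42 within batch 2, and 3 genes were called lower without the unnumbered library.

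**Figure D2:**
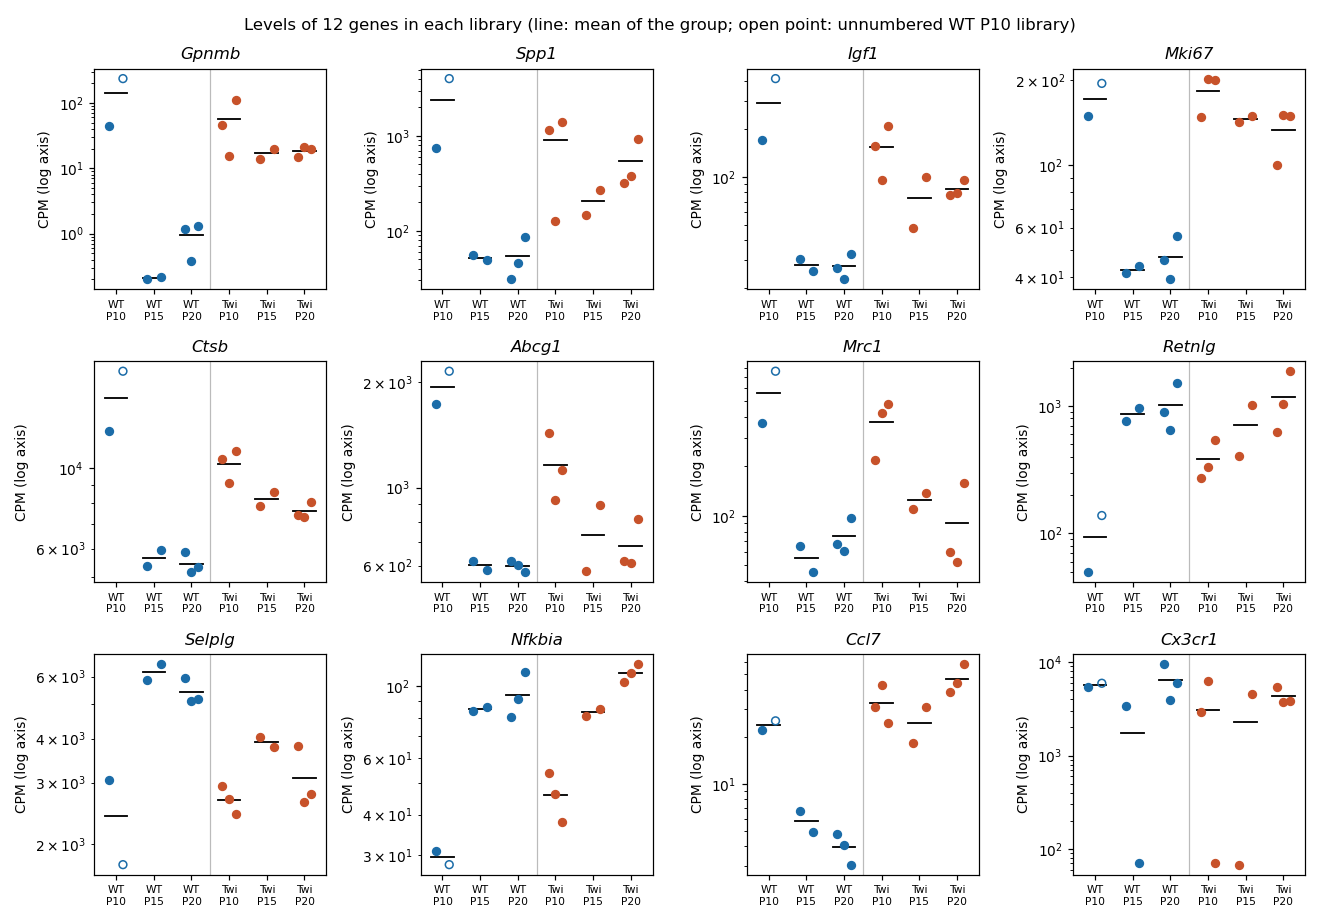
CPM (log y axis) of 12 genes in each of the 15 libraries, by genotype and age (x axis); points are libraries, lines are group means and the open point is the unnumbered WT P10 library. For Gpnmb, Spp1, Igf1, Mki67, Ctsb, Abcg1 and Mrc1 both WT P10 libraries lie above all WT P15 and P20 libraries, and for Retnlg, Selplg and Nfkbia below them; Cx3cr1 lies between 67.8 and 71.2 CPM in 3 libraries, none of them at WT P10 or P20.

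Genes of early postnatal microglia were mixed: of 21 tested, 6 were called lower and 1 higher (33.3%, against 10.3% of all genes tested). The median was -0.01 and changed sign under 7 of the 30 alternatives. It was -0.97 within batch 1 and 0.04 within batch 2, and -0.84 without P10 replicate 1. Those called lower numbered 4 without P10 replicate 1 and 2 without the unnumbered library. Psat1, an enzyme of serine synthesis, measured 117 and 138 CPM at P10 and 26.8, 15.6 and 22.1 CPM at P20, a change of -2.55 ± 0.23 (SE). Scd2, a fatty acid desaturase, changed by -1.39 ± 0.19 (SE). Mrc1, the mannose receptor CD206, measured 366 and 761 CPM at P10 and 67.6, 61.3 and 96.6 CPM at P20, and Dab2, an endocytic adaptor, 279.5 and 706 CPM at P10 and 75, 99.7 and 116 CPM at P20. Mrc1 and Dab2 changed by -2.81 ± 0.49 (SE) and -2.20 ± 0.43 (SE), and both are also expressed by border-associated macrophages. The markers of those macrophages summed to 1553 and 2861 CPM at P10 and 984, 1001 and 1249 CPM at P20. Of these markers, 6 of 19 were called lower (31.6%, against 5.64% of all genes tested). The part of these macrophages in the result was not tested.

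Lysosomal genes that fell did so by less than 2-fold in 10 of 14 cases. Of 55 lysosome genes tested, 14 were called lower and 1 higher (27.3% in either direction, against 10.3% of all genes tested). The median was -0.29, and it was -0.22 within batch 1 and -0.31 within batch 2. Without the unnumbered P10 library 6 were called lower. After cathepsin B, the smallest p were those of Tpp1, tripeptidyl peptidase, Gusb, beta-glucuronidase, and Hexa, the alpha subunit of beta-hexosaminidase. Tpp1 measured 1102 and 1247 CPM at P10 and 700.3, 598 and 583 CPM at P20, a change of -0.88 ± 0.13 (SE). Gusb measured 679 and 636 CPM at P10 and 324, 240.2 and 270.2 CPM at P20, a change of -1.28 ± 0.19 (SE). Hexa measured 1152 and 1180.0 CPM at P10 and 620.4, 489 and 506 CPM at P20, a change of -1.14 ± 0.17 (SE). Lgmn, the protease legumain, measured 29012 and 26478 CPM at P10 and 21207, 19524 and 19137 CPM at P20, a change of -0.47 ± 0.12 (SE). The membrane protein Lamp1 (-0.92), the cholesterol-handling proteins Lipa and Npc2 (-0.68 and -0.68), the proteases Ctsa and Ctsz (-0.73 and -0.83) and the proton pump subunit Atp6v1a (-0.48) were also called lower. Ctss rose, at 10769 and 10927 CPM at P10 and 15192, 13785 and 14424 CPM at P20. The Galc transcript, mutated in the Twi arm of the series, measured 55.9 and 68.5 CPM at P10 and 35.2, 36.8 and 36.7 CPM at P20 in these WT libraries; the groups did not overlap, and its change of -0.77 ± 0.27 (SE) had an adjusted p of 0.0854.

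CLEAR elements of lysosomal promoters contain the E-box letters CACGTG. Of the 14 lysosome genes called lower, 12 had a window, and 5 of their 14 windows held CACGTG (35.7%), against 9.71% of the windows of all genes tested. Lysosome genes that were not called were not counted apart, so whether the letters go with the fall was not tested. Lamp1 is shown, the called gene with the smallest p among those with the letters in the 250 bases before the start. It held them 4 times, beginning at -61, -45, -28 and -15. Those 250 bases lie at chr8:13158911-13159160 on the plus strand of GRCm38.p6 (RefSeq), with CACGTG in capitals.
Lamp1: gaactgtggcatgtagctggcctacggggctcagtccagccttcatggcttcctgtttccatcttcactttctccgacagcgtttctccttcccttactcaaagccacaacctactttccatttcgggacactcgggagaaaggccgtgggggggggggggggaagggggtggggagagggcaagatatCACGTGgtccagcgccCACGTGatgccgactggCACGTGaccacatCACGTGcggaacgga
The Lamp1 transcript measured 251 and 291 CPM at P10 and 139.9, 132 and 155 CPM at P20, so the P20 libraries lay within a narrow range below both P10 libraries.

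Sterol exporters and lipid storage genes were among the lipid genes that fell. Of 45 genes of lipid uptake, storage and efflux tested, 14 were called lower and 2 higher (35.6% in either direction, against 10.3% of all genes tested). The median was -0.66, and it was -0.77 within batch 1, -0.19 within batch 2 and -0.29 without P20 replicate 1. Without P10 replicate 1, without the unnumbered library and without P20 replicate 1, those called lower numbered 8, 3 and 7. The sterol exporters Abcg1 and Abca1, targets of the LXR receptors, both fell. Abcg1 measured 1733 and 2143 CPM at P10 and 619, 603 and 575 CPM at P20, a change of -1.70 ± 0.21 (SE). Abca1 measured 495 and 647 CPM at P10 and 249, 246 and 181 CPM at P20, a change of -1.34 ± 0.17 (SE). Plin2, which coats lipid droplets (-1.34), Soat1, which esterifies cholesterol (-0.93), Pltp, a phospholipid transfer protein (-1.30), Cd36, a fatty acid scavenger receptor (-2.27), and Apoc1, an apolipoprotein (-2.44), were called lower too. Fabp7, a fatty acid binding protein of glia, measured 9.93 and 8.20 CPM at P10 and 1.05, 0.208 and 0 CPM at P20, and was called lower. Pnpla2, the lipase that opens triglyceride stores, rose by 1.07 ± 0.25 (SE). Of 24 cholesterol synthesis genes, 1 was called higher and 1 lower (8.33%, against 10.3% of all genes tested), the latter Acat2, which makes acetoacetyl-CoA (-0.76 ± 0.22 SE), with a median of 0.00. Of 41 sphingolipid genes, 2 were called higher and 3 lower (12.2%, near the 10.3% of all genes tested), with a median of -0.03. Besides Hexa, Smpd3, a neutral sphingomyelinase, was called lower at 5.70 and 2.57 CPM at P10 and 0.839, 1.43 and 1.17 CPM at P20. Sgms2, a sphingomyelin synthase, was called higher at 10.8 and 21.6 CPM at P10 and 46.9, 54 and 85.6 CPM at P20. It was highest in P20 replicate 3, as the neutrophil marker sum was, and the part of neutrophils was not tested. Of 17 genes of iron handling tested, 1 was called higher, Lcn2, the iron-binding lipocalin (2.97 ± 0.47 SE), and 2 lower (17.6% in either direction, against 10.3% of all genes tested). The ferritin light chain Ftl1 measured 6369 and 12308 CPM at P10 and 4236, 3454 and 4767 CPM at P20 and the heme oxygenase Hmox1 38.7 and 63.3 CPM at P10 and 28.1, 31.7 and 30.1 CPM at P20, and these were the falls. Hmox1 passed narrowly, with a limma adjusted p of 0.0478, and was not called under 25 of the 30 alternatives. Ftl1 was not called under 12 of the 30.

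Inhibitors and sensors of the NF-kB pathway rose by moderate amounts. Of 32 inflammatory cytokine and NF-kB genes tested, 9 were called higher and 1 lower (31.2% in either direction, against 10.3% of all genes tested). The median was 0.50. Nfkbia, the inhibitor IkB-alpha that NF-kB itself induces, measured 30.9 and 28 CPM at P10 and 80.6, 91.4 and 111 CPM at P20, a change of 1.65 ± 0.18 (SE). Tnfaip3, the feedback enzyme A20, measured 18.3 and 12.4 CPM at P10 and 32, 35.3 and 36.2 CPM at P20, a change of 1.16 ± 0.21 (SE). Cd14, the lipopolysaccharide co-receptor, measured 578 and 508 CPM at P10 and 1168, 1066 and 1205 CPM at P20, a change of 1.09 ± 0.16 (SE). The receptors Tlr4 and Tlr2 (0.63 and 0.51), the subunit Rel (0.64), the cytokine Il1b (1.37) and the chemokines Ccl4 (2.19) and Ccl5 (2.47) completed the genes called higher. Ccl7, a monocyte chemoattractant, went the other way, at 22.2 and 25.2 CPM at P10 and 4.77, 4.06 and 3.05 CPM at P20, a change of -2.53 ± 0.31 (SE). Its relative Ccl2 measured 28 and 30.4 CPM at P10 and 30.2, 20.7 and 35.5 CPM at P20, and the groups overlapped. In the same libraries the neutrophil markers summed to 2688 and 6275 CPM at P10 and 17896, 13962 and 32117 CPM at P20; their part in these rises was not tested. Without P10 replicate 1, without the unnumbered library, without P20 replicate 1 and without P20 replicate 3, the genes of this list called higher numbered 3, 2, 4 and 5.

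Of 44 interferon-stimulated genes, 7 were called higher (15.9%, against 4.7% of all genes tested) and none lower, and the median change was 0.63. Sp100, a nuclear body protein, measured 38.1 and 50.7 CPM at P10 and 96.7, 101 and 170.3 CPM at P20, a change of 1.44 ± 0.28 (SE). Ifit1, which binds viral RNA, changed by 1.88 ± 0.38 (SE), Ifi35 by 0.61 ± 0.16 (SE) and the exonuclease Isg20 by 1.74 ± 0.47 (SE); reads of close Ifit paralogs can be shared. Without P10 replicate 1 limma called none of the 44, with 7 at an unadjusted p under 0.05 and a median of 0.50. Without the unnumbered library 2 were called, and without P20 replicate 3 3. Of 16 MHC class II genes, with a median of 0.55, 2 were called higher (12.5%, against 4.7% of all genes tested called higher and 10.3% called in either direction): H2-DMb1 (0.49 ± 0.13 SE) and H2-DMa (0.85 ± 0.25 SE), which load peptide. Leaving out P20 replicate 3, 1 was called higher. The invariant chain Cd74 measured 752 and 943 CPM at P10 and 1066, 725 and 2153 CPM at P20; the groups overlapped. Without any single one of P10 replicate 1, the unnumbered library or P20 replicate 1, limma called no MHC class II gene, with 3 at an unadjusted p under 0.05 each time. Of 24 MHC class I genes, 16.7% were called, against 10.3% of all genes tested: the peptide transporter Tap2 (0.89 ± 0.15 SE) and H2-T23 (0.79 ± 0.18 SE) were called higher, and the chaperones Canx (-0.69 ± 0.16 SE) and Calr (-0.49 ± 0.14 SE) lower. Of 39 complement and phagocytic receptor genes, 4 were called higher and 2 lower (15.4%, against 10.3% of all genes tested), with a median of -0.05. Leaving out P20 replicate 3 gave 2 higher and 1 lower. Gas6, a bridging ligand for the uptake of dying cells, measured 171 and 168 CPM at P10 and 61.8, 51.8 and 42.4 CPM at P20, a change of -1.71 ± 0.18 (SE). Itgb2, the integrin beta chain CD18 that pairs with CD11b (0.64 ± 0.14 SE), Havcr2, the receptor TIM-3 (0.77 ± 0.18 SE), and C5ar1, the C5a receptor (0.69 ± 0.16 SE), rose. Neutrophil markers rose in the same libraries, and their part in these rises was not tested. C1qa and C1qb, subunits of complement C1q, changed by -0.03 ± 0.16 (SE) and -0.04 ± 0.15 (SE) and did not pass.

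Among transcription factors, 5 of 25 were called higher and 1 lower (24% in either direction, against 10.3% of all genes tested), with a median of 0.32. Leaving out P20 replicate 3, 3 were called higher and none lower. Tgif1, a repressor of SMAD targets, measured 46.5 and 44.2 CPM at P10 and 86.8, 91.4 and 88.8 CPM at P20, a change of 0.98 ± 0.17 (SE). Klf6 changed by 0.89 ± 0.16 (SE), Mef2a by 0.65 ± 0.18 (SE) and the glucocorticoid receptor gene Nr3c1 by 0.57 ± 0.17 (SE). In TGF-beta and CSF1 signalling, the receptor Tgfbr1 was called higher, at 1781 and 1257 CPM at P10 and 2850.3, 2895 and 2452 CPM at P20, a change of 0.84 ± 0.18 (SE). Nrros, which tethers latent TGF-beta on microglia, was called lower, at 793 and 523 CPM at P10 and 443, 343 and 447 CPM at P20, a change of -0.70 ± 0.18 (SE). The other 20 of the 22 genes of that list were not called, and the share called, 9.09%, was near the 10.3% of all genes tested.

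Channels and purinergic receptors were called in the upward direction only, in 4 of 27 genes (14.8%, against 4.7% of all genes tested) with a median of 0.28. Leaving out P20 replicate 3 gave 2 higher and 1 lower. Trpm2, a calcium channel opened by ADP-ribose, measured 8.63 and 8.47 CPM at P10 and 37.5, 39 and 43.2 CPM at P20, a change of 2.19 ± 0.22 (SE). Nt5e, the ectoenzyme CD73 that makes adenosine, changed by 2.43 ± 0.59 (SE), the proton channel Hvcn1 by 0.64 ± 0.16 (SE) and the potassium channel Kcnj2 by 1.83 ± 0.53 (SE). Of 25 genes of ligands to other cells, Tnfsf13b, the B cell factor BAFF, was called higher at 1.32 and 1.46 CPM at P10 and 8.17, 9.41 and 19.2 CPM at P20, as were Pdgfb, a growth factor for mural cells (1.10 ± 0.24 SE), and Sema4d (0.63 ± 0.18 SE). Igf1, Gas6 and Igfbp4 (-1.31 ± 0.30 SE) were called lower, and 24% of the list was called, against 10.3% of all genes tested. Tnfsf13b was highest in P20 replicate 3, as the neutrophil marker sum was. The part of neutrophils in the rises of channels and ligands was not tested. Of 38 genes of matrix and adhesion, 10 were called higher and 4 lower (36.8% in either direction, against 10.3% of all genes tested). Mmp8 and Mmp9, which were among the genes with the smallest p, are also expressed by neutrophils, whose markers rose in the same libraries; their part was not tested. Only 4 were called higher without P10 replicate 1. Mmp8, a collagenase, measured 124 and 156 CPM at P10 and 794, 659 and 1532 CPM at P20. The inhibitors Timp2 and Timp3 (-0.61 and -2.23) were called lower.

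Lists of energy supply and translation had medians below 0 that differed between the batches. All 13 mitochondrially encoded genes were negative, and 5 were called lower (38.5%, against 5.64% of all genes tested). The median was -0.65, and it was -1.01 within batch 1 and -0.28 within batch 2. The cytochrome b gene mt-Cytb measured 5486 and 5803 CPM at P10 and 2955, 3283 and 3457 CPM at P20, a change of -0.84 ± 0.14 (SE), and mt-Co1, a subunit of cytochrome oxidase, 2464 and 2563 CPM at P10 and 1418, 1346 and 1624 CPM at P20, a change of -0.79 ± 0.12 (SE). Nuclear-encoded genes of oxidative phosphorylation had 3 of 47 called lower (6.38%, near the 5.64% of all genes tested), with a median of -0.37 that was -0.77 within batch 1 and 0.03 within batch 2. Ribosomal protein genes had 3 of 67 called lower (4.48%, near the same 5.64%), with a median of -0.24, which was -0.97 within batch 1 and 0.39 within batch 2, so the sign differed between the batches. In glycolysis and hypoxia, 3 of 27 genes were called lower and 1 higher (14.8% in either direction, against 10.3% of all genes tested). Bnip3, a mitophagy receptor, measured 148 and 149.9 CPM at P10 and 59.4, 64.5 and 62.2 CPM at P20, a change of -1.29 ± 0.22 (SE), while the lactate exporter Slc16a3 rose by 1.08 ± 0.31 (SE). Of 27 early genes that tissue dissociation can induce, 4 were called higher (14.8%, against 4.7% of all genes tested) and none lower. Their median was 0.31, and their part in the other rises was not tested. Leaving out P20 replicate 3, 2 of these early genes were called higher and 1 lower. Btg2, an antiproliferative gene, measured 257 and 240.1 CPM at P10 and 602, 557 and 559 CPM at P20, a change of 1.23 ± 0.13 (SE).

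**Figure D3:**
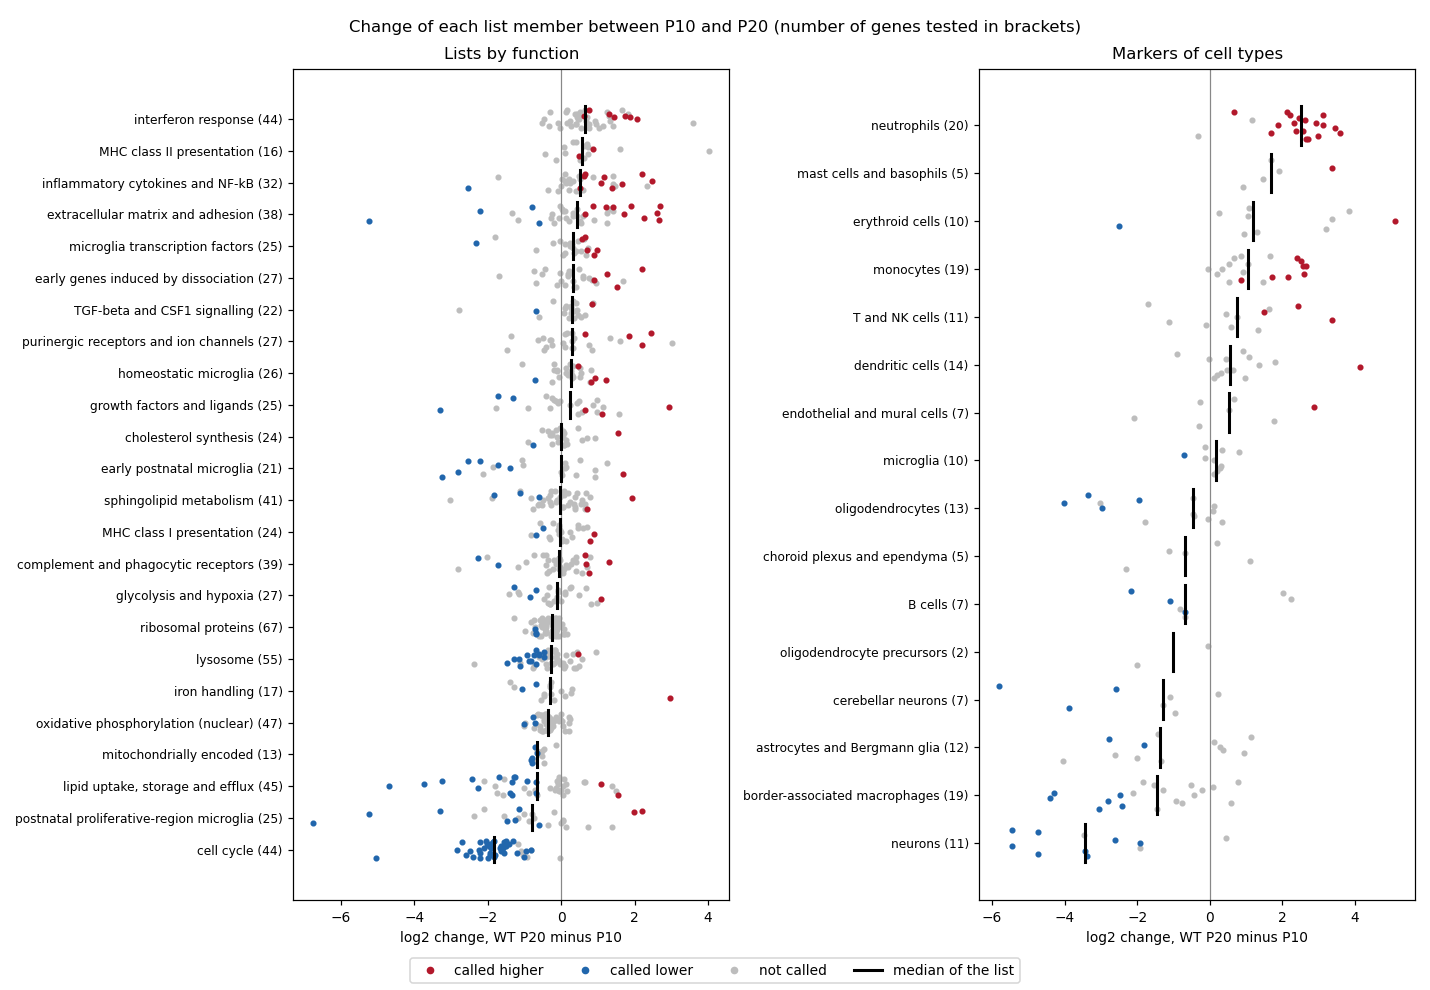
Log2 change from P10 to P20 (x axis) of each gene of the 24 function lists (left) and the 16 cell type marker lists (right), one row a list; red and blue points were called higher and lower, gray points were not called, and black bars are list medians. Cell cycle genes lie below 0 with a median of -1.84, and 19 of 20 neutrophil markers above 0 with a median of 2.51.

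Neutrophil markers had the highest median of the 40 lists. Of 20 neutrophil genes tested, 18 were called higher (90%, against 4.7% of all genes tested) and none lower, with a median of 2.51. Their summed level was 2688 and 6275 CPM at P10 and 17896, 13962 and 32117 CPM at P20, which was higher in every P20 library than in both P10 libraries, and highest in P20 replicate 3. Genes of the granules that form early in neutrophil development rose: Elane, neutrophil elastase (10.6 and 17.4 CPM at P10 and 43.8, 46.8 and 130.0 CPM at P20), Mpo, myeloperoxidase (2.38 ± 0.67 SE), Prtn3, proteinase 3 (2.31 ± 0.61 SE), and Ctsg, cathepsin G (2.93 ± 0.65 SE). Genes of later granules rose as well: Ngp measured 1371 and 2919 CPM at P10 and 7486, 6321 and 14616 CPM at P20, a change of 2.12 ± 0.45 (SE), and Camp, the precursor of the antimicrobial peptide cathelicidin, changed by 2.66 ± 0.66 (SE). Ltf, lactoferrin, changed by 2.45 ± 0.39 (SE), Lcn2 by 2.97 ± 0.47 (SE), and Mmp9, a gelatinase, by 2.61 ± 0.38 (SE). Among genes of mature neutrophils, S100a8, a calcium-binding alarmin, measured 108 and 882 CPM at P10 and 2349.6, 1495 and 3839 CPM at P20, a change of 3.11 ± 0.80 (SE). Retnlg, a resistin-like protein, measured 49.8 and 138 CPM at P10 and 904, 654 and 1512 CPM at P20, a change of 3.58 ± 0.59 (SE). The surface marker Ly6g measured 0.982 and 5.42 CPM at P10 and 22.1, 15 and 47.4 CPM at P20, a change of 3.44 ± 0.62 (SE). The 2 genes of the list that were not called were the transcription factor Cebpe (1.17 ± 0.58 SE) and Stfa2l1 (-0.31 ± 0.78 SE), the single negative value. The list median was 1.63 within batch 1 and 2.96 within batch 2. Without P10 replicate 1, 4 of the 20 were called, and without P20 replicate 1, or without P20 replicate 3, 11 were.

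The factor PU.1, which drives myeloid genes, reads purine-rich letters. GAGGAAGT occurred in 7 of the 18 windows of the neutrophil genes called higher (38.9%), against 3.3% of the windows of all genes tested and 8.77% of the windows of all genes called higher. Neutrophil genes that were not called were not counted apart, so whether the letters go with the rise was not tested. Mmp8 and Ly6g had the smallest p of the genes with the letters in the 250 bases before the start. Of these, Ly6g, the defining surface marker, is shown with the letters in capitals, beginning at -31. Its 250 bases lie at chr15:75155011-75155260 on the plus strand of GRCm38.p6 (RefSeq).
Ly6g: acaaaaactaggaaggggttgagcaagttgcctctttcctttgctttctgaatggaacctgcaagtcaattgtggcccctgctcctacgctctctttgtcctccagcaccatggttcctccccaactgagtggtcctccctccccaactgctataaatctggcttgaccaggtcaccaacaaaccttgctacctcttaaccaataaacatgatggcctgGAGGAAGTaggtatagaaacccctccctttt
Ly6g belongs to a family of near-identical genes, and its reads can be shared with them.

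Monocyte markers had 8 of 19 genes called higher (42.1%, against 4.7% of all genes tested) and none lower, with a median of 1.05. The median was 0.66 within batch 1 and 1.59 within batch 2, 0.60 without P10 replicate 1 and 1.63 without P20 replicate 1. Just 1 was called without P10 replicate 1, and without P20 replicate 1, or without P20 replicate 3, 5 were. Of the 8 called, Chil3, Cd177 and Hp are also expressed by neutrophils. Chil3, a chitinase-like protein, measured 111 and 244 CPM at P10 and 954, 674 and 1380.1 CPM at P20. Ly6c2, which marks inflammatory monocytes and has close paralogs, measured 10.4 and 26.7 CPM at P10 and 82.7, 60.2 and 164 CPM at P20, a change of 2.51 ± 0.52 (SE). Ccr2, the chemokine receptor of those monocytes, measured 57.3 and 103 CPM at P10 and 150.5, 133 and 188 CPM at P20; the groups did not overlap, and its change of 1.05 ± 0.41 (SE) had an adjusted p of 0.141. T and NK cell markers had 3 of 11 called higher (27.3%, against 4.7% of all genes tested): Il7r (2.43 ± 0.42 SE), Nkg7 (3.36 ± 0.78 SE) and Cd3d (1.50 ± 0.41 SE). Hdc, the histamine-making enzyme of mast cells and basophils that neutrophils can also express, measured 9.21 and 12 CPM at P10 and 81.4, 113 and 161 CPM at P20, a change of 3.36 ± 0.35 (SE). The mast cell proteases Mcpt4, Tpsab1 and Cma1 were at 0 in all 5 libraries.

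**Figure D4:**
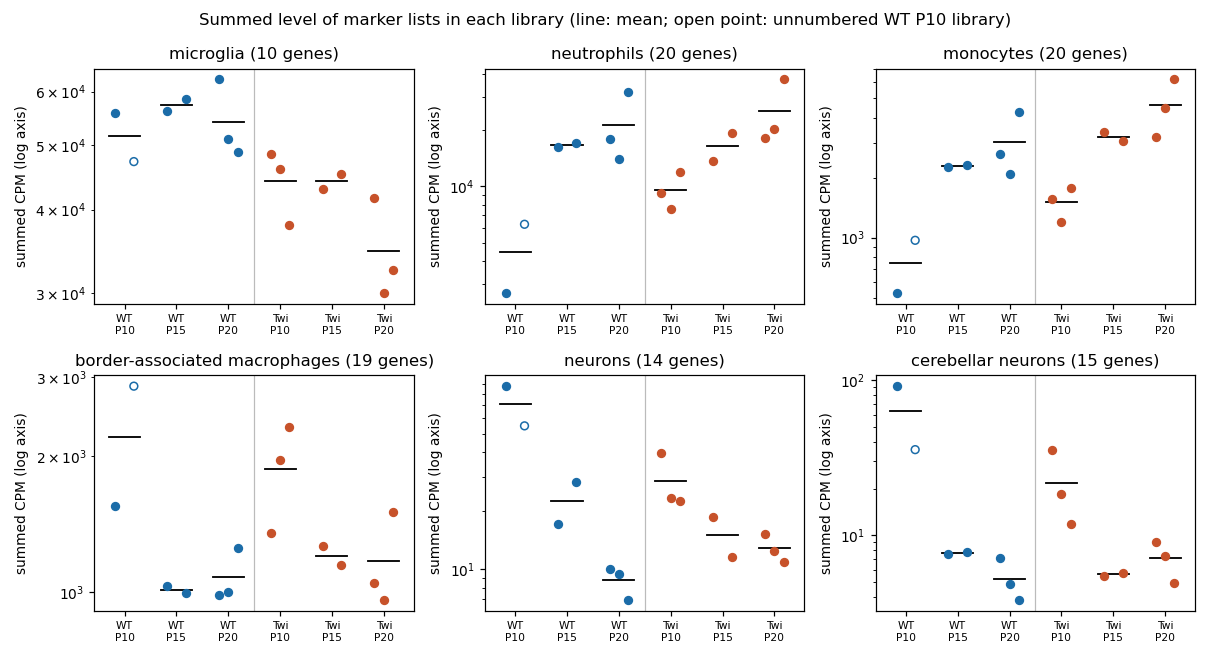
Summed CPM (log y axis) of 6 marker lists in each of the 15 libraries, by genotype and age (x axis); points are libraries, lines are group means and the open point is the unnumbered WT P10 library. In WT, neutrophil and monocyte sums were higher at P20 than at P10 without overlap, neuron and cerebellar neuron sums were lower without overlap, and microglia sums overlapped.

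Markers of border-associated macrophages fell or did not pass. Of 19 tested, 6 were called lower (31.6%, against 5.64% of all genes tested) and none higher, with a median of -1.45. Folr2, a folate receptor of these macrophages, measured 30.1 and 63.8 CPM at P10 and 2.22, 1.13 and 3.04 CPM at P20, a change of -4.41 ± 0.55 (SE). Cd209f, a lectin with close paralogs, measured 32.2 and 89.8 CPM at P10 and 3.10, 1.23 and 4.22 CPM at P20, and Lyve1, a hyaluronan receptor, 27.2 and 108 CPM at P10 and 7.02, 2.10 and 13.6 CPM at P20. The scavenger receptor Cd163 measured 16 and 54.7 CPM at P10 and 5.45, 9.27 and 31.5 CPM at P20; P20 replicate 3 lay between the P10 libraries and the gene was not called. Maf and F13a1, with Mrc1 the most abundant markers of the list, changed by -0.23 ± 0.13 (SE) and 0.09 ± 0.51 (SE) and did not pass. The unnumbered P10 library was the highest of the 5 for all of these genes except Maf, and the list median was -3.03 within batch 1 and -0.64 within batch 2. Without the unnumbered library 1 gene of the list was called lower, without P20 replicate 1 2 and without P20 replicate 2 3. B cell markers had 3 of 7 called lower (42.9%, against 5.64% of all genes tested), while 2 of the 7 were positive. Their changes ranged from -2.17 to 2.23, and the median was -0.69. It was -0.96 without P10 replicate 1 and -0.71 without the unnumbered library. Among those called lower, Ighm, the IgM heavy chain, measured 1296 and 1213 CPM at P10 and 896, 709 and 738 CPM at P20.

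Neuronal transcripts were low at P10 and lower at P20. Of 11 neuronal markers tested, 8 were called lower (72.7%, against 5.64% of all genes tested) and none higher. The list summed to 87.7 and 54.8 CPM at P10 and 9.97, 9.40 and 6.94 CPM at P20. Of 7 markers of cerebellar neurons tested, 3 were called lower (42.9%, against the same 5.64%). That list summed to 91.4 and 35.7 CPM at P10 and 7.15, 4.84 and 3.83 CPM at P20. Neurod1, a transcription factor of cerebellar granule cells, measured 73.2 and 20.7 CPM at P10 and 1.44, 0.579 and 0.187 CPM at P20, a change of -5.80 ± 1.13 (SE). Stmn2, a regulator of axonal microtubules, measured 17.2 and 12 CPM at P10 and 0.939, 0.693 and 0.0743 CPM at P20, and Tubb3, neuronal tubulin, 19.7 and 8.84 CPM at P10 and 0.048, 0.315 and 0.467 CPM at P20. Other genes of growing neurons were among the 12 lowest changes: Gap43, of growth cones, measured 46.4 and 24.7 CPM at P10 and 0.455, 0.915 and 0.0917 CPM at P20, Dpysl3 21.3 and 7.78 CPM at P10 and 0.307, 0.211 and 0.0381 CPM at P20, and Ptn, a secreted growth factor, 42 and 21 CPM at P10 and 1.08, 0.839 and 0.0467 CPM at P20. The RNA-binding protein gene Elavl2 was at 0 in all 3 P20 libraries and measured 12.5 and 3.66 CPM at P10. Without P10 replicate 1, the library with the higher neuronal sum, limma called no neuronal marker, with 6 at an unadjusted p under 0.05 and a median of -3.26, and without the unnumbered library 4 were called. In oligodendrocyte markers, 4 of 13 were called lower (30.8%, against 5.64% of all genes tested). That list summed to 3186 to 4036 CPM at P10 and 3363 to 3961 CPM at P20, and the groups overlapped. In astrocyte markers, 2 of 12 were called lower (16.7%), including Gfap (14.6 and 9.38 CPM at P10 and 4.32, 3.23 and 2.34 CPM at P20). Of the 12, 5 were positive, and the more abundant Slc1a3 and Aldoc changed by 0.37 and 0.10 and were not called. The astrocyte list summed to 189 to 245 CPM at P10 and 197 to 308 CPM at P20, and the groups overlapped. Without P20 replicate 3 limma called no astrocyte marker, with 5 at an unadjusted p under 0.05. Endothelial Cldn5 was at 0 in all 5 libraries. Of 7 endothelial and mural markers tested only Acta2, a smooth muscle actin, was called (2.86 ± 0.81 SE), which is 14.3% of the list, against 10.3% of all genes tested. None of 2 oligodendrocyte precursor and none of 5 choroid plexus and ependymal markers tested was called by limma, and none of either list had an unadjusted p under 0.05.

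Of the 12 largest fitted rises, most were in genes of low level. Hbb-bt, a beta globin with near-identical copies, measured 0.568 and 0 CPM at P10 and 12.8, 4.30 and 8.23 CPM at P20. Klrd1, the NK cell receptor CD94, measured 0.344 and 0.393 CPM at P10 and 6.12, 6.32 and 10.6 CPM at P20, a change of 4.14 ± 0.62 (SE). Fut7, which builds selectin ligands on leukocytes, measured 0.0382 and 1.05 CPM at P10 and 4.27, 4.02 and 9.43 CPM at P20, and Clec4e, the receptor Mincle, 2.40 and 3.15 CPM at P10 and 25.8, 22.8 and 68.6 CPM at P20, a change of 3.53 ± 0.52 (SE). Mefv, the inflammasome protein pyrin, measured 0 and 0.634 CPM at P10 and 2.45, 3.46 and 3.93 CPM at P20, and Ptgir, the prostacyclin receptor, 1.09 and 0.0589 CPM at P10 and 6.55, 3.41 and 8.37 CPM at P20. Arhgef37, a guanine nucleotide exchange factor, measured 0.726 and 0.986 CPM at P10 and 8.18, 9.04 and 17.3 CPM at P20, a change of 3.51 ± 0.44 (SE). Ccnk, a cyclin of transcription kinases, measured 0 and 0 CPM at P10 and 1.55, 2.79 and 5.75 CPM at P20. Mctp2, Chil5 and Mrgpra2a, of which Chil5 and Mrgpra2a have close paralogs, changed by 3.93 ± 0.69 (SE), 3.58 ± 0.71 (SE) and 3.56 ± 0.92 (SE). In 7 of the 8 genes given by level here, all but Hbb-bt, P20 replicate 3 was the highest library. Among the largest falls, 3 further genes were at 0 in all 3 P20 libraries: Slc27a1, a fatty acid transporter, with 10.6 and 12.1 CPM at P10, Mfap4, a matrix protein, with 19.1 and 6.42 CPM, and Mcoln3, a lysosomal cation channel, with 7.35 and 13.4 CPM. Ociad2 measured 4.57 and 5.32 CPM at P10 and 0, 0 and 0.0156 CPM at P20, and Ttn and Fxyd6 changed by -6.25 ± 1.18 (SE) and -5.60 ± 1.35 (SE). Among called genes of high level, Sepp1, which encodes the selenium carrier selenoprotein P, measured 8479 and 9000.3 CPM at P10 and 3956, 3093 and 3064 CPM at P20, a change of -1.37 ± 0.15 (SE), and Tmbim6, an inhibitor of cell death in the endoplasmic reticulum, 5859 and 5819 CPM at P10 and 4603, 4256 and 4507 CPM at P20, a change of -0.40 ± 0.11 (SE).

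WT P15 libraries were closer in level to P20 than to P10 for the 6 genes given here. Between P15 and P20 no gene was called (0%), with 398 genes at an unadjusted p under 0.05; limma was the only tool run. Gpnmb measured 0.199 and 0.215 CPM at P15, Igf1 30.4 and 25.7 CPM, Ctsb 5385 and 5949 CPM, Abcg1 620.2 and 583 CPM, Retnlg 762 and 969 CPM and Nfkbia 83.8 and 86.3 CPM. Each of these P15 values was below both P10 libraries where the gene fell and above them where it rose. With 2 libraries at P15 and 3 at P20, small changes between these ages could be missed.

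Whether the WT change differs from that of Twi was tested by the difference of the 2 changes, and 1 gene was called (0.00752%), with 1223 at an unadjusted p under 0.05. In Twi, whose P10 and P20 libraries are not those of WT, 318 genes were called between P10 and P20 (2.39%). Of the 625 genes called higher in WT, 573 (91.7%) were positive in Twi, with a median of 0.62 against 1.24 in WT, and of the 750 called lower 702 (93.6%) were negative, with a median of -0.48 against -1.23. Over all genes tested 49.8% were positive in Twi. These genes were chosen by their WT change, so the sizes of the medians cannot be compared. The gene called was Ccl7: in Twi it changed by 0.61 ± 0.29 (SE), against -2.53 ± 0.31 (SE) in WT, a difference of 3.15 ± 0.42 (SE) with an adjusted p of 0.0435. This call was lost when either WT P10 library, WT P20 replicate 1 or 2, or any Twi P10 library was left out, among other alternatives. Ranked only among genes called between P10 and P20 in WT, the next by p were Ociad2, the centrosome protein gene Tacc3, the DNA repair gene Rad51ap1, Bbs9, of the ciliary BBSome, and the D-type cyclin Ccnd2. Their limma adjusted p were 0.0512, 0.0634, 0.0634, 0.0634 and 0.083. The WT change is part of the difference, so this ranking favors large WT changes. Bbs9 measured 16.5 and 18.1 CPM at P10 and 63.7, 74.9 and 67.8 CPM at P20 in WT. The cell cycle list had a median of -0.58 in Twi, with 1 of 44 called lower, and none of the 44 differences was called. Mki67 measured 100.3, 151 and 150 CPM in the 3 Twi P20 libraries, above the 3 WT P20 libraries given earlier.

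**Figure D5:**
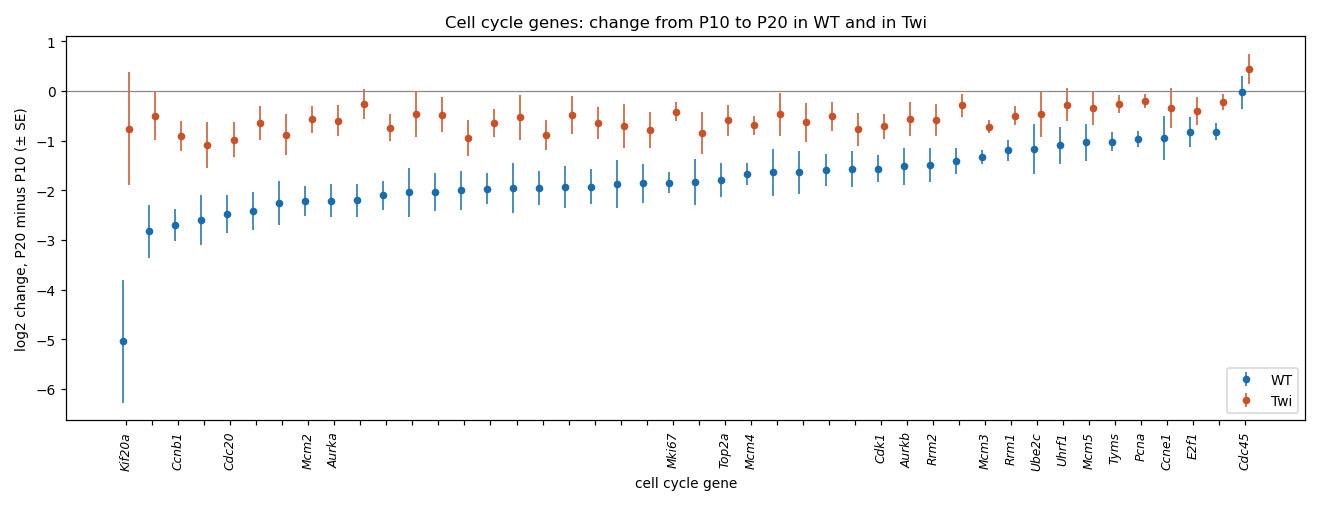
Log2 change from P10 to P20 with its SE (y axis) of the 44 cell cycle genes (x axis, ordered by the WT change, with names for those named in the text), in WT (blue) and Twi (orange). All 44 WT changes lie below 0, with a median of -1.84, and the Twi changes have a median of -0.58; no single difference passed the test.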

How the data were processed

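RNA of CD45 and CD11b sorted hindbrain myeloid cells was sequenced in 15 libraries, made from little RNA by 16 to 19 cycles of PCR, per the labels. Reads were quantified with kallisto 0.46.0 on GRCm39, per the submitters' processing notes. The main values are log2 CPM with TMM normalization as deposited by the authors; TPM values that the authors deposited served as an alternative. Neither table gave whole reads, so no count test was run. CPM was recovered by subtracting the lowest value (0.0921 CPM), and a gene was tested if 2 or more libraries reached 1 CPM (13292 genes). One row without a gene name, 0.0281 to 0.0685% of a library, was left out.

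One linear model over the 6 groups with batch as a term was fitted with limma 3.58.1 in R 4.3.3 (8 residual degrees of freedom, trended and robust variance, Benjamini-Hochberg adjustment over all genes tested). Fits on all groups share one estimate of the spread. The P20 against P15 contrast was added after the data were seen. The code was tested on simulated data. The unnumbered P10 library was given batch 1, the label left in its group. The gene lists and the comparison were chosen with earlier results of these data known. Named genes were 12 core genes, the 12 highest and 12 lowest called changes, the 10 most abundant called genes, up to 4 genes per function list by p, up to 3 markers per cell type by level, and the 6 smallest p of the genotype difference among genes called in WT. Other genes were chosen after their values were seen, and some genes that the rule names are not reported here. Alternatives changed the batch term, libraries, filter, scaling, pseudocount, variance model, replicate block and left-out library.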

Additional observations from a re-analysis of the deposited data

Results flagged for a closer look

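The change of Ccl7, a monocyte chemoattractant, between P10 and P20 differed between the genotypes by a test of the difference itself. It measured 22.2 and 25.2 CPM at P10 and 4.77, 4.06 and 3.05 CPM at P20 in WT, a log2 change of -2.53 ± 0.31 (SE), and changed by 0.61 ± 0.29 (SE) in Twi, a difference of 3.15 ± 0.42 (SE) with a limma adjusted p of 0.0435. Whether the gene is called depends on the fit, as given under the processing.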

How the results depend on the processing

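All 1375 called genes kept their direction under each alternative that tested them, 1262 of 1262 with at least 5 CPM in 2 libraries, while the number called depended on the libraries. For 1372 of the 1375 the libraries of the ages did not overlap in the direction of the call. The kept direction was therefore largely fixed in advance and does not test the calls. Against 625 higher and 750 lower, fitting only the 5 WT libraries gave 160 and 235, and batch 2 libraries only gave 110 and 88; both have fewer samples. The variance model without trend and robust gave 397 higher, and its cause was not tested. Replicate numbers did not pair the samples by label, and the deviations of the single same-numbered P10 and P20 pair correlated at -0.02; the replicate block, with the unnumbered library left out, gave 162 higher and 156 lower. Leaving out each library in turn gave 118 to 662 higher and 191 to 828 lower. The genotype difference, with 1 gene called, had 2 with no batch term, 0 with the unnumbered library in batch 2, 0 with batch 2 only, 0 with the Y-linked mean as a covariate, 4 with no filter, 2 with log2(TPM + 1), 2 with log2(TPM + 0.1), 14 with library quality weights, 0 with the replicate block, and 0 to 4 with a library left out; the cause was not tested. Medians of ribosomal protein and nuclear oxidative phosphorylation genes changed sign to 0.39 and 0.03 with batch 2 only. Genes that were not called changed sign: F13a1 ranged from -0.84 to 0.90 with a library left out and Cx3cr1 from -0.30 to 0.41, F13a1 was -0.067 with quality weights, and Cx3cr1 was -0.11 with the 7 WT libraries, -0.17 with batch 2 only and -0.32 with the Y-linked covariate. Levels near the lowest value limit the fitted changes of low genes.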

Other observations

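Cx3cr1, the fractalkine receptor of microglia, measured 70.0 CPM in WT P15 replicate 2, 71.2 CPM in Twi P10 replicate 3 and 67.8 CPM in Twi P15 replicate 1. The other 12 libraries ranged from 2951 to 9603 CPM. In the WT P10 and P20 libraries it measured 5459 and 5947 CPM at P10 and 9603, 3964 and 5929 CPM at P20, a change of 0.13 ± 2.46 (SE). The cause was not tested.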
